A study of Mus musculus with 6 samples.

Results

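The 26S proteasome is described here through the genes of its constitutive 20S core, its 19S regulatory particle, its alternative activators and its assembly chaperones. The 41 genes were chosen by name, with the immunoproteasome subunits left out, and each of the 41 symbols matched 1 row of the 27734 genes in the deposited table. All 41 passed the filter on low values (mean over the 6 libraries no lower than 1 FPKM). The libraries came from rib chondrocytes, the cells that make cartilage, of mouse embryos at E18.5, late in gestation, collected directly after the ribs had been digested with enzymes. There were 3 wild-type libraries and 3 from conditional knockout embryos (Jab1flox/flox; Col2a1-Cre), in which Cre under the Col2a1 promoter removes Jab1 in cartilage-forming cells while other cells of the rib keep it. Whether the wild-type embryos carried floxed alleles is not given in the labels, nor whether libraries came from separate embryos, so the p-values cover only the spread among these libraries and that spread may be technical. Libraries are named by their column number, and triplets of values stand in the order of columns 0, 1 and 2. Wild-type column 0 carries a later day in its title than the other 5 libraries.

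The proteasome is the protease that degrades proteins tagged with ubiquitin. Its 20S core is a barrel of alpha and beta rings in which the beta subunits Psmb5, Psmb6 and Psmb7 cut peptides, and the 19S particle, made of a base with ATPases and a lid, recognises, unfolds and deubiquitinates substrates. Jab1, encoded by Cops5, is a subunit of the COP9 signalosome, a complex built on the same plan as the 19S lid. The lid subunit Psmd14, which removes ubiquitin chains, is the counterpart of Jab1, which removes the ubiquitin-like protein Nedd8 from the cullin scaffolds of ubiquitin ligases. When proteasome activity falls, cells can raise many of its genes together through the transcription factor Nfe2l1 (NRF1).

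Cops5 (chromosome 1, 10024601 to 10038168, mm10) was 42.3, 39.8 and 40.1 FPKM (wild type) and 17.00, 18.01 and 17.2 FPKM (mutant), with a log2 fold change of -1.18 (SE 0.0599, 95% interval -1.33 to -1.03, limma adjusted p = 6.5e-04). FPKM are fragments scaled to the length of the gene model and to the size of the library, and every log2 fold change here is mutant minus wild type of log2(FPKM + 1), a scale that shrinks the changes of low genes. Column totals ran from 571180 to 631534 FPKM. All 10 chondrocyte markers found in the table were tested, none was at 0, and 2 of the 10 fell. Their summed levels were 8694 to 10294 FPKM in wild-type and 5927 to 9921 FPKM in mutant libraries. Differences were negative for 8 of the 10 and positive for 2, with a median of -0.48. Groups did not overlap for 3 of the 10 (30%, against 32.2% of all genes). The mutant was the lower group in all 3, against 15.9% of all genes. Summed erythroid markers (7 genes) were 196 to 221 FPKM in wild-type against 14.9 to 49.4 FPKM in mutant libraries, and all 5 tested fell. Summed myeloid markers (8 genes) were 104 to 269.7 against 19.5 to 53.7 FPKM, and 2 of the 7 tested fell (S100a8 and S100a9). Of these 7, 6 had a negative difference. Cd68 had a positive one, with means of 6.53 FPKM (wild type) and 9.99 FPKM (mutant). Groups overlapped for Cd68, Csf1r and Tyrobp. Summed levels of 4 Y-linked genes were 0.0281 to 0.639 FPKM in wild-type and 14.6 to 82.8 FPKM in mutant libraries, so genotype and embryo sex cannot be told apart. In these bulk samples fewer cells of a type and less RNA per cell cannot be told apart either.

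None of the 41 proteasome genes rose or fell in the mutant chondrocytes. These verbs are kept for genes with a limma p under 0.05 after Benjamini-Hochberg adjustment across the 14012 genes fitted, and 6.07% of all genes tested passed that threshold (3.48% higher and 2.59% lower). At an unadjusted limma p under 0.05, 1 of the 41 (2.44%) differed, against 24.7% of all genes. Groups did not overlap for 2 of the 41 (4.88%), both with the mutant higher, against 32.2% of all genes (16.3% with the mutant higher). The smallest p of an exact permutation test of 3 against 3 libraries is 0.1, so no such p is given for single genes.

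The differences were small in size as well as in number called. The median log2 fold change of the 41 genes was 0.04, with 25 positive and 16 negative and a range from -0.21 (Psmg1) to 0.34 (Psma3), beside a median of -0.0039 over all genes. Their median absolute log2 fold change was 0.10, against 0.19 over all genes and 0.17 over the 10426 genes whose mean level lay within the proteasome range. The median 95% interval extended 0.24 on either side of the estimate. For 39 of the 41 genes (95.1%) the whole interval lay within a 1.5-fold change of FPKM + 1 in either direction. The shares were 57.2% of all genes and 64.6% of genes in the same range of levels. For low genes this count depends on the added 1. The estimate of Psma3, with an upper bound of 0.57, was 0.34, and it was 0.42 with 0.1 added instead. The upper bounds of the intervals of Adrm1 and Pomp reached 0.70. The sign of the proteasome median turned to -0.02 with quantile normalization, to -0.00046 without mutant column 2, and to -0.22 when the mean Y-linked level entered the fit. No member passed in any of these. With the Y-linked level in the fit, 8 of the 41 had an unadjusted limma p under 0.05, as did 20.5% of all genes. That level was low in every wild-type and higher in every mutant library. The fit therefore separates it poorly from genotype, and a gene that does not pass in it decides little.

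**Figure D1:**
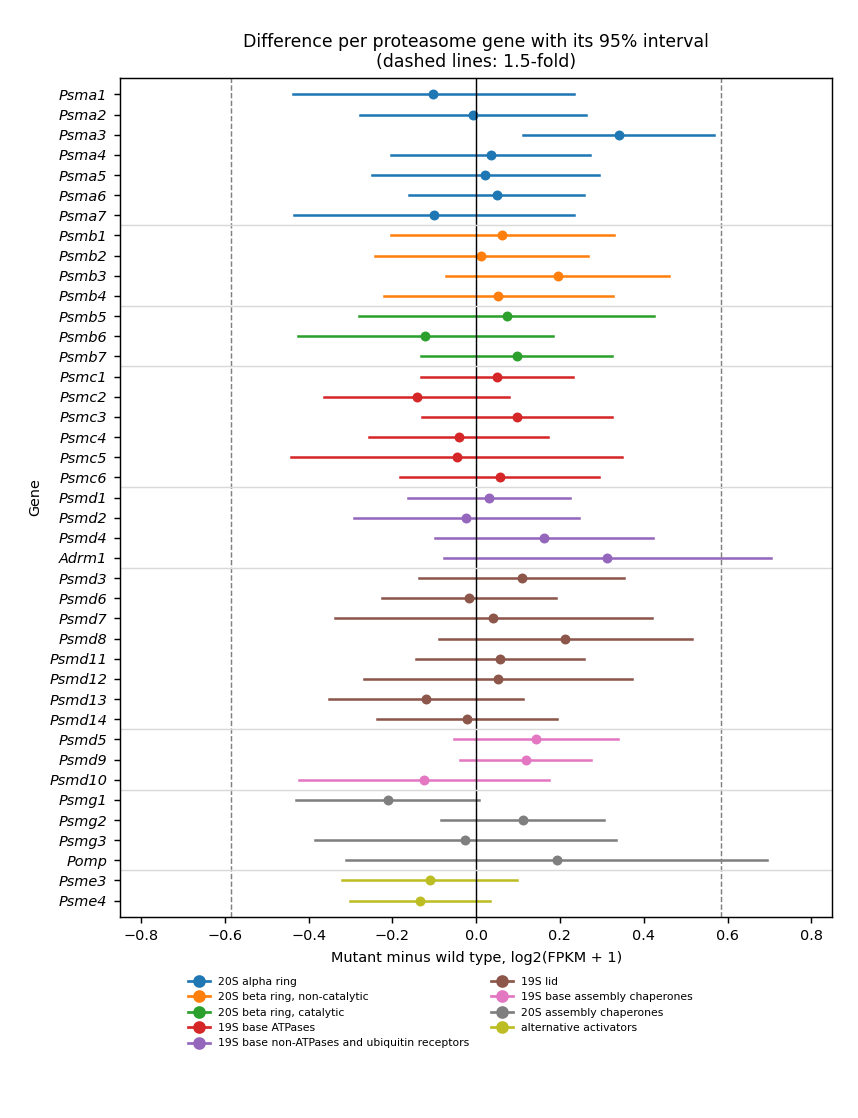
Difference between mutant and wild type for each of the 41 proteasome genes (horizontal axis, log2(FPKM + 1) scale; points are limma estimates, bars their 95% intervals from 3 against 3 libraries, colours the roles). All but Adrm1 and Pomp have intervals between the dashed lines at 1.5-fold, and only that of Psma3 leaves out 0.

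**Figure D2:**
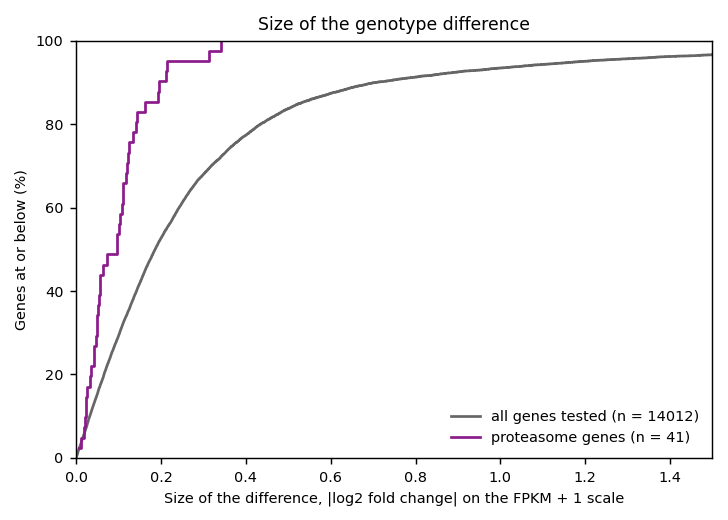
Share of genes (vertical axis, percent) whose absolute log2 fold change was at or below the value on the horizontal axis, for the 41 proteasome genes and all 14012 genes tested. The proteasome curve reaches 100% at 0.34, the value of Psma3, and the horizontal axis stops at 1.5 although some genes lie beyond it.

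The alpha ring forms the outer gates of the 20S core, through which substrates enter. Its 7 genes had a median log2 fold change of 0.02, and none passed. Psma7, the highest of them, measured 168, 130.4 and 147 FPKM (wild type) and 120.0, 141 and 154 FPKM (mutant). Wild-type column 0 was highest and mutant column 0 lowest, and the groups overlapped. Psma1 measured 112, 97.8 and 109.8 FPKM (wild type) and 81.8, 105 and 112 FPKM (mutant), with mutant column 0 lowest and the other mutant libraries inside or just above the wild-type range. Of the 7 alpha genes, 5 had their lowest value in mutant column 0. Psma2 and Psma6 had differences of -0.01 (-0.28 to 0.26, limma adjusted p = 0.98) and 0.05 (-0.16 to 0.26, limma adjusted p = 0.76).

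Psma3 alone of the 41 genes had an unadjusted p under 0.05, and its level was the lowest of the alpha subunits. It measured 2.83, 3.08 and 3.32 FPKM (wild type) and 4.44, 3.83 and 4.21 FPKM (mutant). All mutant values were above all wild-type values, with a log2 fold change of 0.34 (SE 0.0925, 95% interval 0.11 to 0.57, limma adjusted p = 0.094). Psma3 (chromosome 12, 70974621 to 70996347, plus strand) has a processed pseudogene, Gm13835 (chromosome 6, 31141979 to 31142663, minus strand), that matches its transcript of 859 bases at 100% identity over 685 bases. Gm13835 was listed at 90.6, 86.2 and 103 FPKM (wild type) and 83.5, 106 and 101 FPKM (mutant). These levels lie within the range of the alpha subunits other than Psma3 and Psma5, and the groups overlapped. Since a read from the shared stretch has no sequence that assigns it to either gene, the value of Psma3 alone is uncertain. A coding stretch of 100 bases (bases 207 to 306 of that transcript) is shown because it is the same in both, so no base is in capitals.
Psma3 and Gm13835: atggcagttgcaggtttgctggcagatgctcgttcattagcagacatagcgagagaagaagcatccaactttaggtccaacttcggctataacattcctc

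With Psma3 summed with its 3 copies in the table, a sum chosen after the data were seen, the values became 96.5, 92.5 and 111 FPKM (wild type) and 90.96, 114 and 109.6 FPKM (mutant). The groups then overlapped, with a log2 fold change of 0.07 (SE 0.118, 95% interval -0.22 to 0.36, limma adjusted p = 0.76). Of the 41 genes, 10 had an annotated copy elsewhere in the genome with at least 95% identity over at least 200 bases, 18 copies in all, of which 13 for 9 genes were in the table. No member passed when each was summed with its copies. A further 4 members (Psmb7, Psmd1, Psmd13 and Psmg3) share transcript sequence with an annotated gene that overlaps them. Gene models differ in length, so a sum of FPKM is not the level of 1 transcript.

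Psma5 also has copies with levels of their own. It measured 9.75, 8.41 and 10.2 FPKM (wild type) and 8.73, 9.29 and 10.9 FPKM (mutant), and its processed pseudogenes Gm12989 and Gm8394, with 97.55% and 98.63% identity, were listed at levels as high or higher. Gm12989 was 14.6, 14.1 and 14.4 FPKM (wild type) and 16.9, 18.7 and 19.02 FPKM (mutant). Its mutant values were all above the wild-type values, without passing (limma adjusted p = 0.053), while Psma5 and Gm8394 overlapped between groups. Summed with both copies, Psma5 was 35.3 ± 1.50 FPKM in wild type and 38.4 ± 4.02 FPKM in mutant libraries (SD, n = 3, limma adjusted p = 0.50).

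**Figure D3:**
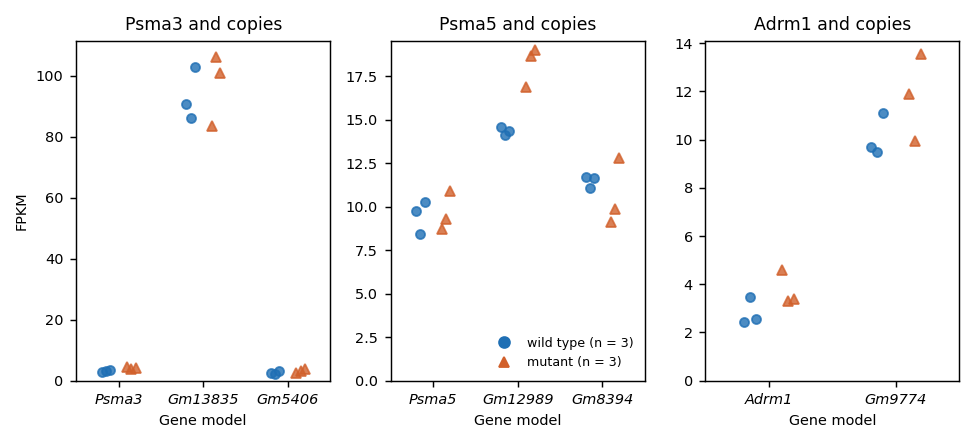
Levels (FPKM, vertical axes from 0) of Psma3, Psma5 and Adrm1 beside their closest annotated copies, each point 1 library, circles wild type and triangles mutant. Gm13835 stands at 83.5 to 106 FPKM above Psma3 at 2.83 to 4.44 FPKM, and Gm9774 stands above Adrm1 in every library.

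None of the 3 catalytic subunits of the beta rings passed. Psmb6, the highest of the 41 genes in wild type, which carries the caspase-like activity, measured 209, 166 and 189.9 FPKM (wild type) and 156, 171 and 192 FPKM (mutant). Wild-type column 0 was highest and mutant column 0 lowest, with the other 4 libraries between them. Psmb5, which carries the chymotrypsin-like activity and is the target of proteasome inhibitor drugs, measured 40.2, 29.04 and 31.8 FPKM (wild type) and 31.6, 35.3 and 39.01 FPKM (mutant). Here wild-type column 0 was again highest and wild-type column 1 lowest, so the mutant libraries lay inside the wild-type range, with a log2 fold change of 0.07 (SE 0.143, 95% interval -0.28 to 0.42, limma adjusted p = 0.79). Psmb7, which carries the trypsin-like activity, measured 90.01, 78.9 and 86.3 FPKM (wild type) and 82.9, 92.5 and 98.1 FPKM (mutant), with mutant columns 1 and 2 above and column 0 inside the wild-type range.

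The structural beta subunits Psmb1 and Psmb4 had differences of 0.06 (-0.20 to 0.33, limma adjusted p = 0.76) and 0.05 (-0.22 to 0.33, limma adjusted p = 0.80). Psmb2, the highest of this role, measured 181, 151 and 168 FPKM (wild type) and 154, 169 and 182 FPKM (mutant), a difference of 0.01 (-0.24 to 0.27, limma adjusted p = 0.96). All 4 structural beta genes were lowest in wild-type column 1. Psmb3, the lowest of the 4, measured 26.3, 23.2 and 23.4 FPKM (wild type) and 26.2, 25.8 and 32.2 FPKM (mutant). Its highest library was mutant column 2, and the other mutant libraries lay inside the wild-type range, with a log2 fold change of 0.19 (SE 0.108, 95% interval -0.07 to 0.46, limma adjusted p = 0.33). Psmb3 has 3 annotated copies, of which Gm4950 was in the table at 9.80 to 16.6 FPKM.

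The 6 ATPases of the 19S base unfold substrates and thread them into the core, and none of their genes passed. Psmc3, the highest, measured 108, 92.2 and 101 FPKM (wild type) and 99.5, 109 and 114 FPKM (mutant), a difference of 0.10 (-0.13 to 0.32, limma adjusted p = 0.55). Psmc2, the lowest in mutant libraries, measured 45.6, 50.3 and 47.98 FPKM (wild type) and 38.8, 45.4 and 46.2 FPKM (mutant). Mutant column 0 was below the other 5 libraries, which overlapped between groups, with a log2 fold change of -0.14 (SE 0.0896, 95% interval -0.36 to 0.08, limma adjusted p = 0.39). Psmc5 varied most within wild type, where column 0 was 41.95 FPKM and column 1 60.3 FPKM, and the mutant libraries lay between them. The differences of Psmc1, Psmc4 and Psmc6 were 0.05, -0.04 and 0.06.

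Among the other base subunits, Psmd4 and Adrm1 are receptors for ubiquitin chains and Psmd1 and Psmd2 are large scaffolds. Psmd4 measured 87.3, 74.95 and 79.01 FPKM (wild type) and 80.7, 90.1 and 100.02 FPKM (mutant). Mutant columns 1 and 2 were above every wild-type library and mutant column 0 was not, with a log2 fold change of 0.16 (SE 0.106, 95% interval -0.10 to 0.42, limma adjusted p = 0.40). Psmd1 and Psmd2 had differences of 0.03 (-0.16 to 0.22, limma adjusted p = 0.84) and -0.02 (-0.29 to 0.25, limma adjusted p = 0.92). Adrm1, the lowest of the 41 genes in wild type, measured 2.44, 3.47 and 2.57 FPKM (wild type) and 4.57, 3.31 and 3.38 FPKM (mutant). Mutant column 0 was highest, while mutant columns 1 and 2 lay below wild-type column 1. Its estimate of 0.31 had a 95% interval from -0.08 to 0.70. Adrm1 (chromosome 2, 180171485 to 180176286, plus strand) shares 99.8% identity over 1358 bases with Gm9774 (chromosome 3, 92428032 to 92429423, minus strand), annotated as protein-coding. Gm9774 was 9.71, 9.48 and 11.1 FPKM (wild type) and 11.9, 9.96 and 13.6 FPKM (mutant), above Adrm1 in every library. The value of Adrm1 alone is therefore uncertain, as for Psma3. Summed with Gm9774, a sum also chosen after the data were seen, it averaged 12.9 FPKM (wild type) and 15.6 FPKM (mutant, limma adjusted p = 0.23). A coding stretch of 100 bases is shown because it holds 2 of the bases that tell them apart, in capitals.
Adrm1: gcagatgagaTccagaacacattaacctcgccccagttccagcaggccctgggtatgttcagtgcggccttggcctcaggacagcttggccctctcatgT
Gm9774: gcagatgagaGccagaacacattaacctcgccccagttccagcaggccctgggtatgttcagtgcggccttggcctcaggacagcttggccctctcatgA

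The 19S lid is the part whose subunits have counterparts in the COP9 signalosome, and none of its 8 genes passed. Psmd14, the deubiquitinase and counterpart of Cops5, measured 65.2, 61.1 and 64.6 FPKM (wild type) and 56.3, 67.5 and 64.9 FPKM (mutant). Mutant column 0 was lowest and mutant column 1 highest, so the wild-type libraries lay inside the mutant range, with a log2 fold change of -0.02 (SE 0.0872, 95% interval -0.24 to 0.19, limma adjusted p = 0.91). Psmd7, its partner subunit and the counterpart of Cops6, measured 45.3, 68.03 and 59.1 FPKM (wild type) and 57.1, 56.3 and 61.9 FPKM (mutant). Wild-type columns 0 and 1 were the lowest and the highest of the 6 libraries. Its difference was 0.04 (-0.34 to 0.42, limma adjusted p = 0.90), and that of Cops6 was -0.14 (-0.32 to 0.05, limma adjusted p = 0.32).

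The largest estimate in the lid was that of Psmd8, which measured 80.1, 68.2 and 76.6 FPKM (wild type) and 74.8, 89.2 and 98.2 FPKM (mutant). Mutant columns 1 and 2 were above all wild-type libraries and column 0 was inside their range, as for Psmd4, with a log2 fold change of 0.21 (SE 0.123, 95% interval -0.09 to 0.51, limma adjusted p = 0.34). Psmd11, the lowest lid gene, measured 12.9, 14.1 and 15.4 FPKM (wild type) and 14.1, 15.3 and 14.8 FPKM (mutant), and the groups overlapped. Psmd11 is the subunit whose level has been linked to proteasome assembly, and its interval ran from -0.14 to 0.26. Psmd13, with the lowest estimate, measured 62.05, 55.1 and 56.6 FPKM (wild type) and 47.6, 55.8 and 56.4 FPKM (mutant), with mutant column 0 below the other 5 libraries. Psmd3, Psmd6 and Psmd12 had differences of 0.11, -0.02 and 0.05.

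Dedicated chaperones help assemble the particles and are not part of the finished proteasome, and none of the 7 tested here passed. Psmd9, which helps assemble the base, was with Psma3 the only member whose groups did not overlap, at 10.4, 9.72 and 10.6 FPKM (wild type) and 10.7, 11.4 and 11.4 FPKM (mutant). The gap between the highest wild-type and the lowest mutant library was small beside the spread, with a log2 fold change of 0.12 (SE 0.0636, 95% interval -0.04 to 0.28, limma adjusted p = 0.31). Psmd5, another base chaperone, measured 17.2, 16.1 and 16.5 FPKM (wild type) and 16.8, 18.6 and 19.9 FPKM (mutant), with mutant column 0 inside the wild-type range. Psmd10, which encodes gankyrin and is the only member on the X chromosome, measured 9.03, 7.76 and 8.67 FPKM (wild type) and 6.49, 8.87 and 7.86 FPKM (mutant), and the groups overlapped.

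Psmg1, which with Psmg2 starts assembly of the alpha ring, had the lowest estimate of all members. It measured 28.3, 25.3 and 30.6 FPKM (wild type) and 22.9, 25.3 and 23.9 FPKM (mutant). Mutant column 1 matched wild-type column 1 to the digits shown, and the other mutant libraries were below all wild-type libraries, with a log2 fold change of -0.21 (SE 0.0888, 95% interval -0.43 to 0.01, limma adjusted p = 0.21). Its partner Psmg2 measured 19.8, 20.6 and 21.4 FPKM (wild type) and 21.2, 21.3 and 24.5 FPKM (mutant), an estimate of the opposite sign, 0.11 (-0.08 to 0.31, limma adjusted p = 0.44), and overlapping groups. Psmg3, another chaperone of the alpha ring, measured 15.3, 10.5 and 12.99 FPKM (wild type) and 12.1, 11.6 and 13.99 FPKM (mutant), with the mutant libraries inside the wild-type range. Pomp, the maturation factor of the beta rings, measured 72.5, 61.7 and 68.3 FPKM (wild type) and 56.3, 85.2 and 95.4 FPKM (mutant). Its mutant libraries were both the lowest and the 2 highest of the 6, which gave the widest interval of the 41 genes, -0.31 to 0.70.

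Psme3 and Psme4 encode PA28 gamma and PA200, activators that can replace the 19S particle, mainly in the nucleus. Psme4 measured 37.6, 40.1 and 40.2 FPKM (wild type) and 35.3, 37.8 and 34.1 FPKM (mutant). Mutant column 1 was just above wild-type column 0, and the other mutant libraries were below all wild-type libraries, with a log2 fold change of -0.13 (SE 0.0679, 95% interval -0.30 to 0.03, limma adjusted p = 0.29). Psme3 measured 32.7, 37.1 and 35.3 FPKM (wild type) and 34.2, 29.6 and 33.3 FPKM (mutant), with mutant column 1 lowest and the other mutant libraries inside the wild-type range, a difference of -0.11 (-0.32 to 0.10, limma adjusted p = 0.47).

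**Figure D4:**
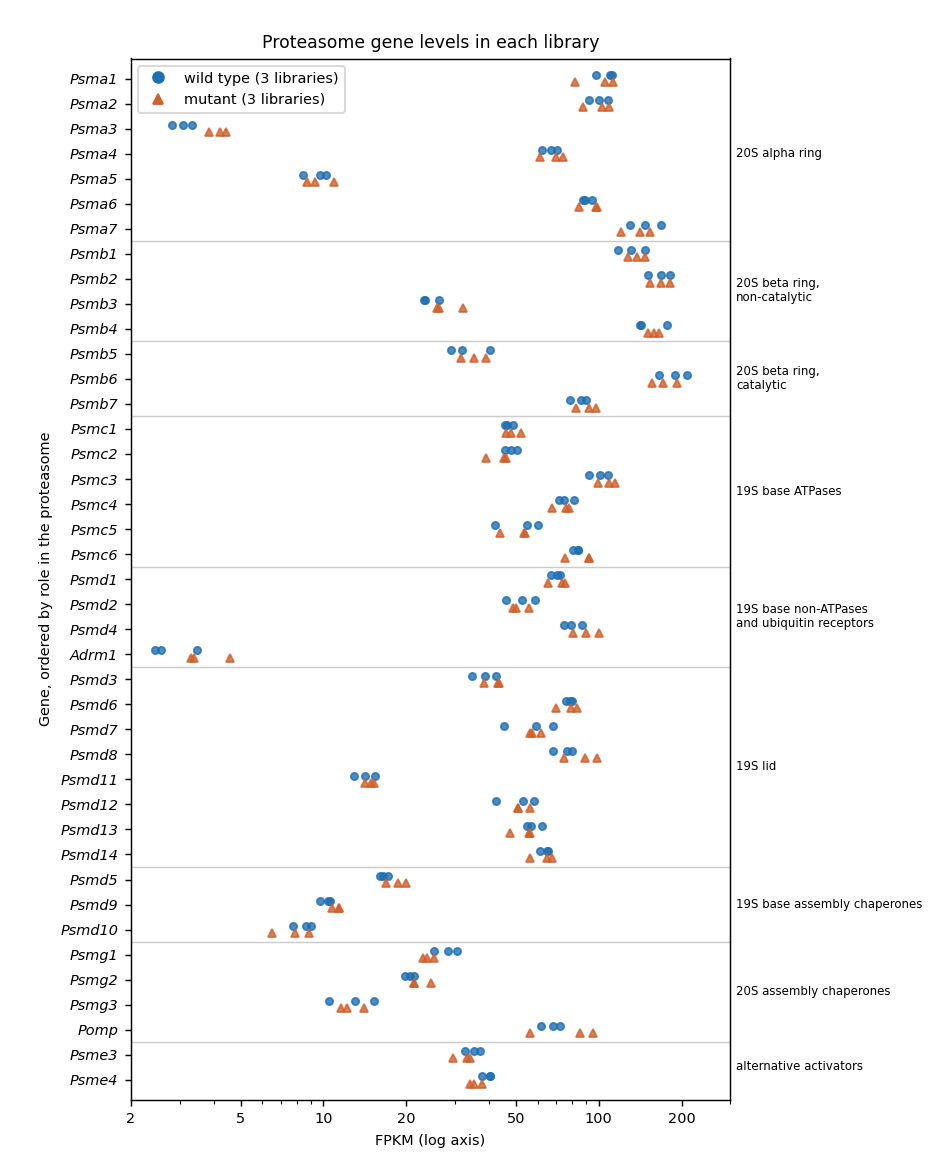
FPKM (horizontal log axis) of the 41 proteasome genes in each library, grouped by role, circles for 3 wild-type and triangles for 3 mutant libraries. The groups overlap in all genes but Psma3 and Psmd9, and the lowest levels as listed, without copies, are those of Adrm1, Psma3, Psmd10 and Psma5.

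Levels per kilobase differed widely among the 41 genes. Wild-type means as listed ran from 2.82 FPKM (Adrm1) to 188 FPKM (Psmb6), with medians of 90.4 FPKM for the alpha ring, 85.1 for the catalytic and 143 for the structural beta subunits, 64.2 for the ATPases and 57.7 for the lid. The low values of Adrm1 and Psma3 are uncertain because of their near-identical copies. The chaperones were lower, with medians of 10.2 FPKM for those of the base and 24.3 FPKM for those of the core, and Pomp was the exception at 67.5 ± 5.42 FPKM in wild type. The order of the roles is a description, and neighbouring roles overlapped in the levels of their genes.

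The proteasome genes shifted together between some libraries of 1 genotype by more than their median difference of 0.04 between genotypes. Relative to each gene's mean over the 6 libraries, the median of the 41 genes was 0.03, -0.06 and 0.0011 (log2, wild type) and -0.09, 0.04 and 0.10 (mutant). The median difference between mutant columns 2 and 0 was 0.20, where that of all genes was -0.0034. Mutant column 0 held the lowest value for 16 of the 41 genes (39.0%, against 21.3% of all genes) and wild-type column 1 for 13 (31.7%, against 13.0%). Mutant column 2 held the highest value for 15 (36.6%, against 16.6% of all genes). Members measured in the same library share its scaling and RNA, so they are not independent. Mutant column 0 was also the mutant library with the lowest Y-linked sum, and the part of either in the other was not tested. Without mutant column 0 the proteasome median was 0.08, and again none of the 41 passed.

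**Figure D5:**
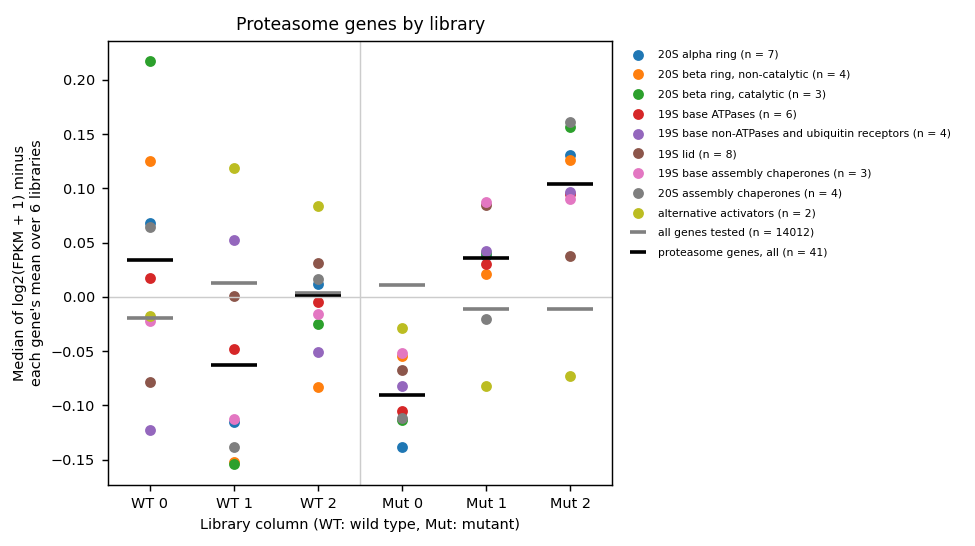
Median over the genes of each role of log2(FPKM + 1) minus the gene's mean over the 6 libraries (vertical axis), by library column (WT wild type, Mut mutant), with bars for all 41 proteasome genes and for all genes tested. The proteasome bar is lowest in Mut 0 at -0.09 and highest in Mut 2 at 0.10, while the bar of all genes stays near 0.

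Promoter windows of the members were compared with other promoters because proteasome genes are known to be raised together through shared elements. RefSeq windows (GRCm38.p6, 250 bases before to 50 after the start) were found for 34 of the 41 genes, 36 windows in all. The core of the antioxidant response element, through which NRF1 acts, was searched as TGACNNNGC on both strands and was in 7 of the 36 windows (19.4%), against 12.4% of all 32851 windows and 13.0% of the 21262 of protein-coding genes. CCAAT was in 13 windows (36.1%), against 37.4% and 38.2%. The core of sites for ETS factors, CCGGAAG, was in 17 windows (47.2%) of 16 genes, against 8.9% and 11.6%. A match describes the letters and is not a site of binding. Of the stretches shown, the first 4 carry TGACNNNGC and the other 6 carry CCGGAAG, each in capitals and read on the gene's strand, where a match to the opposite strand appears as its reverse complement. All stretches end before the start of transcription.
Adrm1 (chr2:180171400-180171460, gene on the plus strand): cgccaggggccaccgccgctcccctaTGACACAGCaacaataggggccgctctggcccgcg
Psmb6 (chr11:70525322-70525356, gene on the plus strand): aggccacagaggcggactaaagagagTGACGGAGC
Psmc6 (chr14:45329574-45329631, gene on the plus strand): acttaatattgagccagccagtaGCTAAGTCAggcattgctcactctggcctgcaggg
Psmd12 (chr11:107479278-107479315, gene on the plus strand): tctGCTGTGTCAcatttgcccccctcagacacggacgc
Psmc2 (chr5:21785165-21785223, gene on the plus strand): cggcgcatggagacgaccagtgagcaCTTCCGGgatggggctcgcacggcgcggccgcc
Psmd2 (chr16:20651600-20651651, gene on the plus strand): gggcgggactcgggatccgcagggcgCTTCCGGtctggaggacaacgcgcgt
Psmd4 (chr3:95042707-95042765, gene on the minus strand): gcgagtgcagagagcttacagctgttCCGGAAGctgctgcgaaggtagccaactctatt
Psmd11 (chr11:80428578-80428614, gene on the plus strand): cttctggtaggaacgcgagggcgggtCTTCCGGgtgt
Psme3 (chr11:101316080-101316138, gene on the plus strand): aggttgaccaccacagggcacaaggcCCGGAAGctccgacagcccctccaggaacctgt
Psmg1 (chr16:95990997-95991055, gene on the minus strand): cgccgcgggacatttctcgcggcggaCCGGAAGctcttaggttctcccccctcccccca

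Of the 4 genes shown with TGACNNNGC, Adrm1, Psmb6, Psmc6 and Psmd12 had differences of 0.31, -0.12, 0.06 and 0.05, and none passed. Psmd9 and Psmb5, whose stretches are not shown, also carry it before the start. Their differences were 0.12 and 0.07, and neither passed. Nfe2l1 itself measured 79.99, 98.7 and 74.2 FPKM (wild type) and 94.2, 76.3 and 80.8 FPKM (mutant). The mutant libraries lay inside the wild-type range, with a log2 fold change of -0.0040 (95% interval -0.34 to 0.33, limma adjusted p = 0.99). Of 8 tested genes of NRF1 processing and of the segregase p97, none passed. Nfe2l2, the related factor NRF2, measured 20.6, 22.6 and 18.04 FPKM (wild type) and 25.1, 26.7 and 25.5 FPKM (mutant), all mutant values above wild type, and did not pass (limma adjusted p = 0.10). Ngly1, the enzyme that removes sugars from NRF1, measured 12.2, 10.8 and 12.3 FPKM (wild type) and 10.1, 11.4 and 10.2 FPKM (mutant) with overlapping groups, and Vcp, which encodes p97, had a difference of 0.12 (-0.08 to 0.32, limma adjusted p = 0.41).

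Of the genes for proteins that bind the proteasome or bring substrates to it, those described here are Zfand2a, which rose, and Ubqln2, Usp14, Uchl5 and Shfm1, which did not pass. Zfand2a (chromosome 5, 139471211 to 139484549, minus strand), a stress-induced proteasome-binding protein, measured 9.35, 9.30 and 9.61 FPKM (wild type) and 13.9, 14.04 and 16.5 FPKM (mutant). The groups were well apart, with a log2 fold change of 0.60 (SE 0.0831, 95% interval 0.39 to 0.80, limma adjusted p = 0.021). Zfand2a did not pass when any wild-type library or mutant column 1 was left out (limma adjusted p = 0.083, 0.084, 0.087 and 0.056), nor when the Y-linked level entered the fit (limma adjusted p = 0.33). That last fit separates genotype poorly from the Y-linked level.

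Ubqln2, a shuttle gene on the X chromosome, measured 7.40, 7.02 and 7.35 FPKM (wild type) and 5.31, 5.35 and 4.04 FPKM (mutant), with all mutant libraries lower (limma adjusted p = 0.059). Usp14 and Uchl5, the deubiquitinases that bind the 19S base, had differences of 0.17 (-0.08 to 0.42, limma adjusted p = 0.36) and -0.16 (-0.59 to 0.26, limma adjusted p = 0.59). The lid subunit Sem1, listed as Shfm1, had a difference of -0.01 (-0.25 to 0.24, limma adjusted p = 0.98).

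Of the immunoproteasome and PA28 genes, which interferons induce, 3 of 5 were tested and none passed. Psmb8 and Psmb9 were under 1 FPKM in all 6 libraries, with Psmb8 at 0.198 to 0.718 FPKM. Psme1, a subunit of the activator PA28, measured 11.4, 13.7 and 12.2 FPKM (wild type) and 15.7, 18.8 and 16.7 FPKM (mutant). All mutant libraries were higher, with a log2 fold change of 0.43 (SE 0.101, 95% interval 0.18 to 0.68, limma adjusted p = 0.067), and it passed with library weights and with protein-coding genes only (limma adjusted p = 0.030 and 0.035). Its partner Psme2 measured 4.23, 4.76 and 4.09 FPKM (wild type) and 5.55, 5.15 and 4.75 FPKM (mutant), with mutant column 2 inside the wild-type range, a difference of 0.20 (-0.02 to 0.42, limma adjusted p = 0.24).

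None of the 6 ubiquitin genes and ubiquitin-activating enzymes passed. Ubb, a gene that encodes a chain of ubiquitin units, measured 67.4, 70.7 and 68.7 FPKM (wild type) and 64.00, 64.9 and 59.4 FPKM (mutant), all mutant libraries slightly lower (limma adjusted p = 0.27).

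The complexes built on the same plan as the lid were compared in the same fit. Among 10 tested COP9 signalosome genes Cops5 alone passed, with a list median of -0.12, and groups did not overlap for 5 of the 10 (50.0%, against 32.2% of all genes). The mutant was the lower group in 4 of these 10 genes (Cops3, Cops5, Cops6 and Myeov2, against 15.9% of all genes) and higher in 1 (Cops8, against 16.3%). Cops5 is the gene removed by Cre, so its fall was set by the design. It is counted in these shares and in the list median. None of 13 genes of the translation initiation factor eIF3 passed, with a list median of 0.02 and groups that did not overlap for 2 of the 13 (15.4%), both with the mutant higher. Cops8, a small subunit of the signalosome, measured 25.6, 25.2 and 23.03 FPKM (wild type) and 29.3, 30.1 and 27.3 FPKM (mutant), all mutant libraries higher (limma adjusted p = 0.13). Myeov2, another small subunit, measured 119, 109.9 and 115 FPKM (wild type) and 92.7, 105 and 95.5 FPKM (mutant), all mutant libraries lower, a difference of -0.23 (-0.42 to -0.05, limma adjusted p = 0.14). Cops3 had a difference of -0.19 (-0.39 to 0.01, limma adjusted p = 0.22). The smallest p-values in eIF3 were those of Eif3l, a difference of 0.15 (-0.03 to 0.33, limma adjusted p = 0.26), and Eif3b, a difference of -0.10 (-0.30 to 0.10, limma adjusted p = 0.51). For the proteasome genes the corresponding values were a median of 0.04 and 2 of 41 (4.88%).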

How the data were processed

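RNA of 3 wild-type and 3 mutant libraries was sequenced as single-end reads of 50 bases after ribosomal RNA depletion, per the labels' protocols. Per the submitters' processing notes, STAR, Cufflinks and Cuffdiff were used with mm10, and the authors deposited 1 table of FPKM values. The sources used here give no versions, settings or scaling between libraries, and the labels also name CLC Genomics Workbench. Read totals of the libraries are not analysed here, which leaves the depth unknown and counting error without an interval. Descriptions number the libraries 0, 1 and 3 and columns 0, 1 and 2, so column 2 of each group was assigned to its group only.

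Values were taken as log2(FPKM + 1), and the 14012 genes averaging 1 FPKM or more entered a linear model in limma 3.58.1 under R 4.3.3 (lmFit, eBayes with trend), two-sided, with Benjamini-Hochberg adjustment over all of them. The fit was tested on simulated data in which genes varied independently and the changes put in were larger than any proteasome estimate. That test therefore does not cover small changes or genes that shift together. Coordinates and gene types came from GENCODE M21 (99.4% of identifiers matched), copies from blastn 2.17.0 searches of its transcripts. Promoters came from RefSeq, where 34 of 41 members matched. Members, lists and tests were chosen with earlier results of these data known. By rule, values in every library are given for Cops5, for the 12 members ranked first by p and for the highest and lowest of each role; of each related list, the genes that passed and the 2 with the smallest p. Other genes, and the copies, were named after their values were seen. The alternatives tried were the pseudocounts 0.1 and 0.5, dropping the filter, a floor of 5 FPKM, median-of-ratios and quantile scaling, a robust prior, library weights, protein-coding genes only, the mean log2 level of 4 Y-linked genes as a covariate, a block on column number and leaving out each library. Protein sequences planned for display were not used here, and some genes of the related lists are not reported here.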

Additional observations from a re-analysis of the deposited data

How the results depend on the processing

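No proteasome gene passed in limma under any of the 18 alternative settings, and the smallest adjusted p of a member in each ranged from 0.069 to 0.23. Between 0 and 8 members had an unadjusted limma p under 0.05, where 17.2 to 29.9% of all genes did. The 8 of 41 came with the Y-linked level in the fit, where the share of all genes was 20.5%. Library weights gave 5 of 41, where the share of all genes was 29.9%. When the Y-linked level entered the fit the proteasome median was -0.22, and over all settings it ranged from -0.22 to 0.08. The sign of the difference changed in at least 1 setting for 30 of the 41 members, none past the threshold, so no direction is claimed for them. Over all genes, 850 changed, against 461 when the filter was dropped, 1488 under library weights, 1373 among protein-coding genes alone and 236 with Y-linked level in the model, and the cause was not tested. Leaving out 1 library in turn, which leaves fewer libraries in the fit, gave 174 to 666 changed genes, 666 without mutant column 0 and 174 to 288 without any other library. With a replicate block on column number 60 genes changed and no member did. Same-numbered columns did not deviate together (correlations of -0.03, -0.04 and -0.02), and no library correlated best with its own number, so the numbers are not taken to pair the libraries. Zfand2a did not pass with the block (limma adjusted p = 0.11).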
